A study of Mus musculus with 8 samples.

Results

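Of 771 very GC-rich promoters in Chd1 KO mouse embryonic stem (ES) cells, 312 (40.5%, Wilson 95% interval 37.1 to 44.0%) had no DNA break peak near their transcription start site (TSS), and 459 had one. Among promoters of all GC contents, a break peak was present at 1285 of 11411, or 11.3%. The promoters belong to autosomal protein-coding genes with 1 TSS over their protein-coding transcripts in the GENCODE M1 annotation of the mouse genome build mm9. The 312 promoters were selected on a GC content of at least 61% within 1 kb of the TSS, read from the genome, and on the absence of a peak summit within 1 kb, read from the break map. The absence of a summit and the GC threshold therefore define these promoters and are given as descriptions. They were compared with the 459 promoters of the same GC range that hold a summit for features of sequence, gene structure and position. The 312 promoters carry 309 distinct gene symbols, and 11 pairs of neighbours among them have TSSs at most 2 kb apart, so that some share sequence.

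Breaks were mapped by DSB-seq, in which terminal transferase labels the ends of broken DNA, and the labeled fragments are purified and sequenced. Chd1 KO cells (Chd1Δ/Δ) had lost both alleles, and control cells (Chd1fl/Δ) carried a floxed and a deleted allele, with 2 biological replicates of each genotype. The replicates were combined before peaks were called, which left 1 list of 5671 peaks for Chd1 KO and 1 list of 54 peaks for control. There is thus no replicate error, promoters are not replicates of a genotype, no p-value is given, and all intervals cover counting error only. The lists hold called peaks only, so a promoter without a summit has no value of its own in them, and its read coverage was not analysed here.

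DNA double-stranded breaks (DSBs) sever both strands of the double helix and are repaired throughout the cell cycle, and actively transcribed promoters are among the places where they form. Most GC-rich promoters of vertebrates are CpG islands, stretches dense in unmethylated CpG dinucleotides where many housekeeping and developmental genes begin. Chd1 is a chromatin remodeler that moves nucleosomes with the energy of ATP and recognizes histone H3 trimethylated at lysine 4, the mark of active CpG island promoters.

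What a very GC-rich promoter looks like is shown by the most GC-rich 200-bp window within 1 kb of the TSS, called its GC peak. The windows printed are from mm9, lie upstream of the TSS outside annotated exons, and read 5′ to 3′ on the strand of the gene, with stretches of 12 bp or more without A or T in capitals. Such a window was at hand for 128 of the promoters, 46 of them without a summit. First come 3 members with some of the most GC-rich of these windows. Papd7, a noncanonical poly(A) polymerase gene, is shown at chr13:69673061-69673260, minus strand, from -543 to -344 bp of the TSS, at 90.5% GC. Wnt3a, which encodes a secreted Wnt ligand, is shown at chr11:59104297-59104496, minus strand, from -242 to -43 bp, also at 90.5%. Itpk1, an inositol phosphate kinase gene, is shown at chr12:103943119-103943318, minus strand, from -239 to -40 bp, at 90%.
Papd7: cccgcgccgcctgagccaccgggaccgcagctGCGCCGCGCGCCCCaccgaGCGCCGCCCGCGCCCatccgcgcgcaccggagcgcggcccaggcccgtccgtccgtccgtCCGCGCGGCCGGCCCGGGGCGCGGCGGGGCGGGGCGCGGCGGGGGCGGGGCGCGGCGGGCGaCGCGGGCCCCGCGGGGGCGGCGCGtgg
Wnt3a: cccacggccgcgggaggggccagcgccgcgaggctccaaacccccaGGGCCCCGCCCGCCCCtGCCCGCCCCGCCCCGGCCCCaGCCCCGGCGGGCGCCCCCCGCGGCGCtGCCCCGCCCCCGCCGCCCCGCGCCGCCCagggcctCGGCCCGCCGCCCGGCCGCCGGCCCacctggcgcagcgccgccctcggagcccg
Itpk1: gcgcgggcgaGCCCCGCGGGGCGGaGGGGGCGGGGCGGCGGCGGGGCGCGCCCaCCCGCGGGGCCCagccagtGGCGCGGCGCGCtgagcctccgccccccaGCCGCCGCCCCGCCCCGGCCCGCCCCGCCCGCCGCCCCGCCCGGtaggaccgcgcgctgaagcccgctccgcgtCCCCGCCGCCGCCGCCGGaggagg

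Next comes a member whose GC peak of 79% is the median of the promoters without a summit, as an example whose runs need not be typical. Adamts3, a procollagen-processing protease gene, is shown at chr5:90312399-90312598 of mm9, minus strand, from -239 to -40 bp.
Adamts3: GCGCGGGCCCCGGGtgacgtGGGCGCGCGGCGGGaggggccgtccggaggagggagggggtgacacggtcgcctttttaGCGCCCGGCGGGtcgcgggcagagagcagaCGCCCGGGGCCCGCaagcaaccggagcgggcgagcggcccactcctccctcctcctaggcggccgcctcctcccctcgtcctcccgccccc

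For comparison, the same kind of mm9 window is given for promoters whose summit lies inside it, among those of the highest fold enrichment. Smo, which encodes the Hedgehog signal transducer Smoothened, is shown at chr6:29685450-29685649, plus strand, from -244 to -45 bp, with 78.5% GC and a summit at -113 bp of 8.09-fold enrichment. Paqr9, a membrane receptor gene, is shown at chr9:95459974-95460173, plus strand, from -262 to -63 bp, with 85.5% GC and a summit at -178 bp of 5.76-fold.
Smo: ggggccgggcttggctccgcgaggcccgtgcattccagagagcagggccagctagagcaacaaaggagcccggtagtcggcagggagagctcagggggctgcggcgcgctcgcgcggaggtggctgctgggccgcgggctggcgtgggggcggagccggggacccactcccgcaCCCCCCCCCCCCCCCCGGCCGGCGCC
Paqr9: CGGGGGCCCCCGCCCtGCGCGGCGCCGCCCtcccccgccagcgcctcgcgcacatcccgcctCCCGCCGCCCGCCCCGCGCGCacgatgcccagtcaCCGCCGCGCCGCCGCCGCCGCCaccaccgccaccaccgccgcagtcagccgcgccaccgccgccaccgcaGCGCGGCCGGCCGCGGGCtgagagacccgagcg

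The capitals covered 57% of the window of Papd7, 57.5% of that of Wnt3a and 64% of that of Itpk1, with longest runs of 61, 28 and 44 bp. In the window of Adamts3 they covered 27%, with a longest run of 14 bp. In the windows with a summit they covered 13% in Smo and 45.0% in Paqr9. These windows were chosen by their GC content or fold enrichment, and do not stand for the groups.

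The peak that the selection asked for is a call at the depth of the combined libraries. The weakest peak of the Chd1 KO list had 13 extended reads at its summit, and the median was 21 reads and a fold enrichment of 4.56. The strongest summits of the 459 promoters with a summit had a median of 23 reads and of 4.54-fold, the lowest having 13 reads. More than 1 summit was present at 59 of the 459 promoters. No control summit lay within 1 kb of any of the 312 promoters or of the 459, and the control summit nearest to a promoter without a Chd1 KO summit was 29.9 kb away. With 54 control peaks, the weakest of 17 reads, the control list says little about either group at this depth.

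Near the GC threshold, members at the lowest GC content of 61.02% included Adora2a, an adenosine receptor gene, Slc25a29, a mitochondrial carrier gene, and Bambi, a pseudoreceptor gene of the TGF-β family. Just outside, and also without a summit, were Oxsr1, a kinase gene, Ltb4r2, a leukotriene receptor gene, and the provisional gene Gm9885, all at 60.97% GC. Actb, the β-actin gene, was at 60.5% GC and so not a member, with its nearest Chd1 KO summit at -205979 bp. Below the GC threshold 826 of 10640 promoters (7.76%) had a summit.

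Near the distance threshold, the closest summits left outside 1 kb lay 1017 bp downstream of the TSS of Zswim6, a SWIM zinc finger gene, 1046 bp downstream in Sema3f, a semaphorin gene, and 1061 bp downstream in Agap2, a GTPase-activating gene. The summits farthest inside lay at -966 bp in Lbx1, a homeobox gene, at 965 bp in Inhbb, an activin subunit gene, and at -960 bp in Brp44, a mitochondrial pyruvate carrier gene. A peak whose summit lay outside still reached into the window in 5 members, namely Zswim6, Sema3f, Agap2, Chst2 and Fzd8. Most members were far from any break peak. The nearest Chd1 KO summit was 1 to 2 kb away in 10 of 312, 2 to 5 kb in 6, 5 to 10 kb in 15, 10 to 50 kb in 74, 50 to 100 kb in 58, 100 to 1000 kb in 135 and farther in 14. The median was 88.6 kb, and 281 members (90.1%) had no summit within 10 kb.

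A total of 25 features and 13 shares of promoters were computed for the 312 promoters and the 459. Of these, GC content within 1 kb is the value that the selection used, and its values are given as a description. For each feature described, the percentage of pairs is given in which the promoter without a summit had the lower (or higher) value. Ties are counted equally to both sides, with a DeLong 95% interval. At 50% the groups do not differ in rank. Some features are not described further. Among them, the longest run of A and T was shorter without a summit in 56.1% of pairs (52.0 to 60.2%). The exonic share of the window within 1 kb was higher in 54.2% (50.1 to 58.3%). Features built on GC content are tied to the GC content used in the selection, and the groups were not matched for it. GC content within 1 kb had medians of 62.9% without a summit and 63.8% with one. A summit was missing in 92 of 185 promoters at 61 to 62% GC (49.7%) and in 9 of 80 at 68% or more (11.3%).

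The 2 features with the largest differences were the height and the extent of the GC peak. The most GC-rich 200-bp window of promoters without a summit had a median of 79.0% GC (quartiles 76.5 and 82%), and that of promoters with a summit 84% (81.3 and 85.5%). The promoter without a summit had the lower GC peak in 79.9% of pairs (76.5 to 83.2%). A window of at least 84% GC was present in 34 of 312 promoters without a summit (10.9%) and in 230 of 459 with one (50.1%), a Newcombe difference of -39.2 points (-44.7 to -33.2). The groups overlapped, with ranges of 67.0 to 93.0% and 73.5 to 93.0%.

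Extent, added after seeing the data, was the number of 200-bp windows, moved by 1 bp, that reached 75% GC. They were counted anywhere within 1 kb of the TSS, whether or not next to the GC peak. The median extent was 185.5 windows in promoters without a summit (quartiles 66.3 and 316) and 454 in promoters with one (315.5 and 630.5). It was lower without a summit in 81.9% of pairs (78.9 to 84.9%). No window reached 75% GC in 33 promoters without a summit (10.6%) and in 3 with one (0.654%). The 36 promoters with no such window lacked a summit in 91.7% of cases, those with 1 to 99 windows in 58 of 70 (82.9%), and those with 100 to 199 in 77 of 109 (70.6%). At 200 to 399 windows the share was 93 of 229 (40.6%), at 400 to 599 it was 40 of 179 (22.3%), and at 600 or more 11 of 148 (7.43%). The share without a summit thus fell at each step of extent.

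The promoters without a summit had a flatter GC profile along the promoter. In 100-bp bins the largest gap was in the bin centred 50 bp upstream of the TSS, with a mean of 71.1% GC against 75.8%. In the bins centred from -450 to 750 bp the mean was lower without a summit, and beyond them on both sides it was higher, for example 55.0% against 52.2% in the bin centred at -850 bp. The gap was larger on the downstream side, where GC content over 1 kb had medians of 65.8 and 68.4% and was lower without a summit in 63.1% of pairs (59.2 to 67.0%). Upstream the medians were 60.6 and 61.1%, and the share of pairs was 50.9% (46.8 to 54.9%). Within 0.5 kb of the TSS the medians were 67.5 and 70.8%, with 71.5% of pairs (67.9 to 75.1%).

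**Figure D1:**
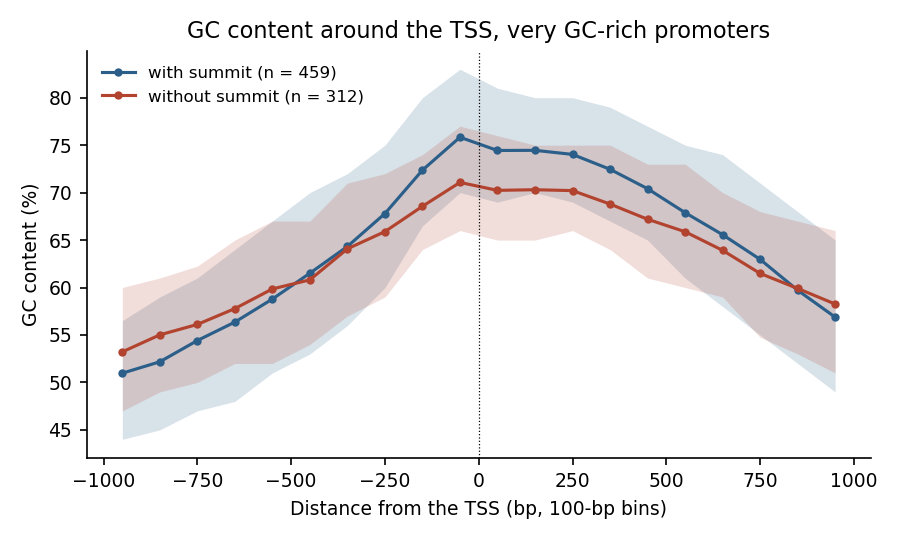
Mean GC content (%) in 100-bp bins against distance from the TSS (bp) for the 312 very GC-rich promoters without a Chd1 KO summit and the 459 with one, with bands from the lower to the upper quartile. The curves are farthest apart in the bin centred at -50 bp (71.1 against 75.8%) and cross on both sides, while the bands overlap throughout.

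Over a wider stretch, looked at after seeing the data, the order was the opposite. GC content of the 10 kb centred on the TSS had a median of 51.4% around promoters without a summit and 49.4% around promoters with one, and was higher without a summit in 59.6% of pairs (55.5 to 63.7%). Promoters in stretches below 46% GC lacked a summit in 34 of 124 cases (27.4%, 20.3 to 35.9%), those at 46 to 50% in 83 of 249 (33.3%, 27.8 to 39.4%), those at 50 to 54% in 118 of 231 (51.1%, 44.7 to 57.5%), those at 54 to 58% in 67 of 150 (44.7%, 36.9 to 52.7%) and those at 58% or more in 10 of 17 (58.8%, 36.0 to 78.4%).

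CpG density was lower in promoters without a summit. Their median was 7.30 CpG per 100 bp (quartiles 6.30 and 8.35) against 8.25 (7.196 and 9.25), and they had the lower density in 68.2% of pairs (64.4 to 72.0%). Because CpG density rises with GC content, the ratio of observed to expected CpG was also compared, and its medians were 0.731 and 0.800, with 66.8% of pairs (62.9 to 70.6%). A summit was missing in 20 of 23 promoters with under 5 CpG per 100 bp (87.0%), in 90 of 206 with 7 to 8 (43.7%), and in 13 of 89 with 10 or more (14.6%). Among the 13, Zswim6 had the highest density at 13.3 CpG per 100 bp.

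Runs of G and C were fewer, and shorter before GC peak height was taken into account. The longest run within 1 kb of the TSS had a median of 20 bp (quartiles 16 and 24) in promoters without a summit and of 24 bp (20 and 29) in those with one, and was shorter without a summit in 66.6% of pairs (62.7 to 70.5%). Within strata of GC peak height, added after seeing the data, this was 49.7% (44.9 to 54.5%). A run of at least 20 bp was present in 160 of 312 promoters without a summit (51.3%) and in 345 of 459 with one (75.2%), a difference of -23.9 points (-30.6 to -17.0), which was 0.226 points (-6.93 to 7.38) within these strata. Over the 11411 promoters of all GC contents this share was 12.8%. The number of runs of at least 12 bp differed more than the length of the longest, with medians of 6 and 9 runs and a lower number without a summit in 76.6% of pairs (73.2 to 79.97%).

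A run of at least 32 bp was present in 21 promoters without a summit (6.73%) and in 72 with one (15.7%), a difference of -8.96 points (-13.2 to -4.44). Among the 21 the longest runs were in Adcy1, an adenylyl cyclase gene, with 62 bp centred 40 bp downstream of the TSS, and in Papd7, with 61 bp at -402 bp. Plag1, a zinc finger transcription factor gene, had 47 bp at -122 bp, and Itpk1 had 44 bp at -115 bp. In these 4 the GC peak reached 89.5 to 93.0%. Smarcd3, a subunit gene of the BAF chromatin remodeling complex, had a run of 41 bp at -42 bp but a GC peak of 77.5% and 135 windows of at least 75% GC, with 6 runs of at least 12 bp, the median of promoters without a summit.

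The centre of the GC peak lay a median of 220 bp from the TSS in promoters without a summit and 173 bp in those with one, and was farther without a summit in 54.9% of pairs (50.8 to 59.0%). With the summit sought within 500 bp of the TSS in place of 1 kb, this share was 66.5% (62.7 to 70.3%). That setting counts a promoter whose GC peak and summit both lie beyond 500 bp as lacking a summit. Part of the higher share thus follows from the definition. The centre was downstream of the TSS in 192 of 312 (61.5%) and in 257 of 459 (56.0%), a difference of 5.55 points (-1.55 to 12.5). When the groups were compared within strata of GC peak height, the share of pairs was 51.0% (46.2 to 55.8%).

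Genes whose promoters lacked a summit were shorter, though less clearly so at a like GC peak height. Gene length, averaged over the protein-coding transcripts, was 13.1 kb at the median without a summit (quartiles 3.50 and 43.0 kb) and 28.6 kb with one (7.31 and 75.7 kb). It was shorter without a summit in 60.4% of pairs (56.3 to 64.4%), and in 53.9% (49.04 to 58.8%) within strata of GC peak height, an interval that included 50%. The median number of exons was 4 against 6 (57.01% of pairs, 52.9 to 61.1%). First introns, where there was one, had medians of 4.44 and 9.35 kb (58.4% of pairs, 53.9 to 62.9%). Genes of a single exon made up 58 of 312 (18.6%) against 55 of 459 (11.98%), a difference of 6.61 points (1.48 to 11.998), and genes under 3 kb 21.2 against 12.6%. Coding sequence differed less, with medians of 1269 and 1380 bp and 54.5% of pairs (50.3 to 58.6%).

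The share without a summit was 18 of 33 (54.5%) for genes under 1 kb, 77 of 170 (45.3%) at 10 to 30 kb, 59 of 206 (28.6%) at 30 to 100 kb and 39 of 119 (32.8%) at 100 kb or more. Genes of at least 100 kb made up 39 of 312 (12.5%) and 80 of 459 (17.4%), a difference of -4.93 points (-9.86 to 0.295). The longest gene without a summit was Ctnnd2, the δ-catenin gene, at 857 kb, with a GC peak of 86.5% and its nearest summit more than 1 Mb away. Next were Hs6st3, a heparan sulfate sulfotransferase gene, at 731 kb, and Enox1, a cell surface oxidase gene, at 565 kb, both with a GC peak of 78.5%. Gphn, which encodes the inhibitory synapse scaffold gephyrin, measured 458 kb with a GC peak of 83.0%, and Plxna4, a semaphorin receptor gene, 443 kb with 81.0%.

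**Figure D2:**
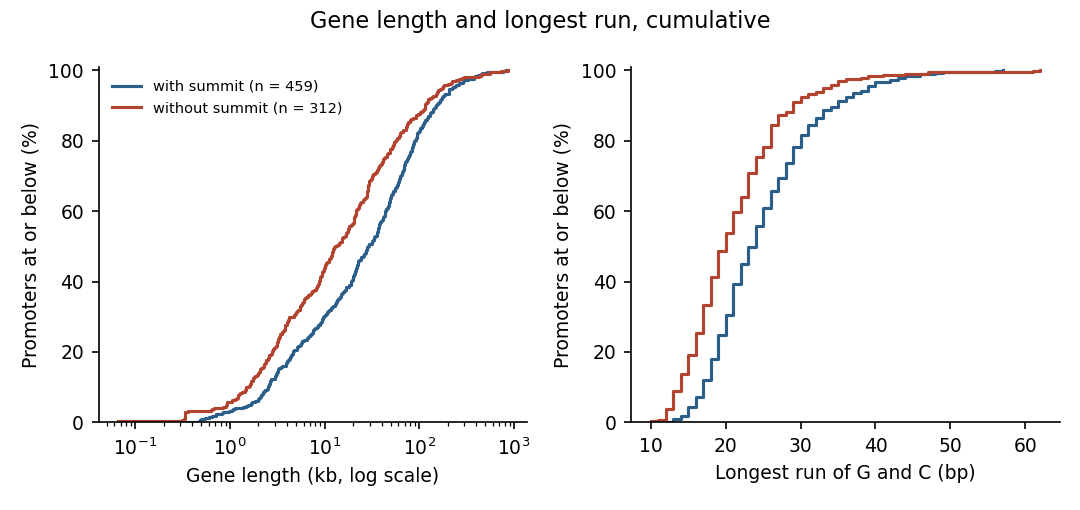
Cumulative percentage of promoters against gene length (kb, log scale, left) and against the longest run of G and C (bp, right), for the 312 promoters without a Chd1 KO summit and the 459 with one. The curve without a summit lies to the left in both, with medians of 13.1 against 28.6 kb and of 20 against 24 bp. GC peak height is not taken into account in these curves.

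For 2 sequence motifs the interval of the difference included 0. A G-quadruplex motif, 4 runs of at least 3 G with loops of 1 to 7 bases on either strand, matched in 277 of 312 promoters without a summit (88.8%) and in 426 of 459 with one (92.8%), a difference of -4.03 points (-8.50 to 0.0614). At least 4 CG dinucleotides in a row, a tract that reads the same on both strands and can overlap the G and C runs, matched in 26.9 and 32.5%, a difference of -5.54 points (-11.9 to 1.08). Among promoters of all GC contents these shares were 47.9% and 6.94%. A match shows that the letters are present in the window and nothing on the structure they may form. GC skew downstream of the TSS was lower without a summit in 53.6% of pairs (49.5 to 57.7%), and a TSS of another gene on the opposite strand lay within 1 kb in 25.3% without and 20.7% with a summit, a difference of 4.62 points (-1.36 to 10.8).

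Reads from repeated sequence are largely lost with those of low mapping quality, so the share of 50-base words that occur once in the genome was computed for each promoter. It was lower without a summit in 52.0% of pairs (49.2 to 54.8%), as most promoters of both groups were fully unique. Under 90% of the words were unique in 15 of the 312 promoters (4.81%) and in 2 of the 459 (0.436%), and under 50% in 11 and in 0. Those 11 were 4 entries of Flg, the filaggrin gene of the epidermis, a gene made of repeats, and 7 provisional gene models on chromosome 12. For these 11 promoters an absence of breaks and a loss of reads cannot be told apart. The 297 promoters with at least 90% unique words made up 39.4% of such promoters.

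Because GC peak height differed most among the features set out at first, and gene length and longest run were greatest in promoters with the highest GC peaks, the groups were compared again within 5 strata of GC peak height, an analysis added after the data had been seen. From the lowest to the highest stratum 130 of 155, 82 of 154, 53 of 154, 22 of 154 and 25 of 154 promoters lacked a summit. Within strata the longest run was shorter without a summit in 49.7% of pairs (44.9 to 54.5%), and gene length in 53.9% (49.04 to 58.8%). The number of runs remained lower (61.1%, 56.6 to 65.7%), as did CpG density (59.9%, 55.0 to 64.7%) and the extent of sequence of at least 75% GC (66.2%, 61.7 to 70.7%). GC content over 10 kb remained higher (60.2%, 55.3 to 65.0%).

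**Figure D3:**
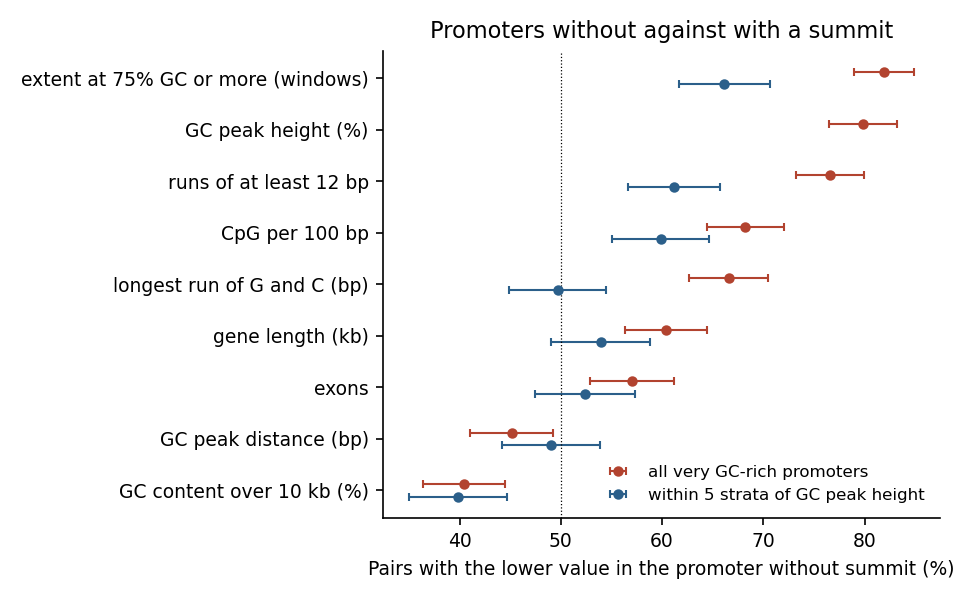
Percentage of pairs in which the promoter without a Chd1 KO summit had the lower value, for 9 features, over all very GC-rich promoters and within 5 strata of GC peak height (not for the height itself), with DeLong 95% intervals. Within strata the longest run (49.7%) lies at the dotted line of 50%, while extent (66.2%), runs of at least 12 bp (61.1%) and CpG density (59.9%) stay above it and GC content over 10 kb stays below.

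A logistic regression was fitted with 6 standardised terms. The odds of lacking a summit were multiplied by 0.306 (0.238 to 0.393) for each SD of GC peak height and by 0.614 (0.471 to 0.802) for each SD of CpG density. The intervals of gene length (0.926, 0.775 to 1.11), longest run (1.099, 0.875 to 1.38) and unique words (0.687, 0.419 to 1.13) included 1. Over all autosomal protein-coding genes, each at its outermost TSS, that of unique words was 0.713 (0.568 to 0.893) and lay below 1. Among the very GC-rich promoters without chromosome 12 it was 0.977 (0.640 to 1.49). GC content within 1 kb was entered only to adjust the other terms, as the selection used it, and its odds ratio is not given. With extent and chromosome 12 added after seeing the data, the odds ratio of extent was 0.303 (0.207 to 0.443), that of GC peak height 0.557 (0.403 to 0.769), and that of CpG density 0.763 (0.571 to 1.02). In this model the odds ratio of chromosome 12 was 1.58 (1.29 to 1.94) per SD. The terms are correlated with each other, and which of them acts on breaks was not tested.

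By GC peak height, the share of promoters without a summit broadly fell and then rose again, a pattern seen in the data and not set out beforehand. It was 18 of 19 below 74% GC (94.7%), with the Flg entries of repeated sequence among the 18. It was 31 of 38 at 74 to 76% (81.6%), 59 of 68 at 76 to 78% (86.8%) and 75 of 115 at 78 to 80% (65.2%). At 80 to 82% it was 49 of 129 (38.0%) and at 82 to 84% 46 of 138 (33.3%). The share was lowest at 84 to 86%, with 10 of 130 (7.69%), followed by 9 of 86 (10.5%) at 86 to 88%. At 88% or more it was 15 of 48 (31.3%, 19.9 to 45.3%). The difference between promoters at 88% or more and those at 84 to 88% was 22.5 points (10.3 to 36.9). Genes with more than 1 TSS, outside the selection but read from the same peak list, were scored at their outermost TSS only. They had 24 of 92 (26.1%) against 46 of 305 (15.1%), a difference of 11.0 points (1.95 to 21.4). Among genes with 1 TSS below 61% GC within 1 kb it was 3 of 13 against 25 of 154. That difference of 6.84 points (-9.46 to 34.5) could not be resolved with these numbers.

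**Figure D4:**
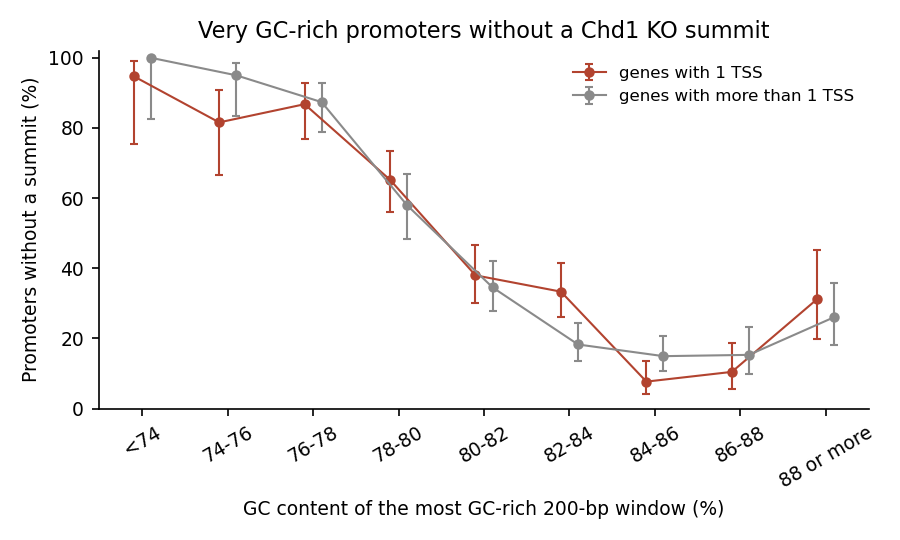
Percentage of very GC-rich promoters without a Chd1 KO summit against the GC content of their most GC-rich 200-bp window (%), with Wilson 95% intervals. Genes with 1 TSS and genes with more than 1 TSS (outermost TSS only) are shown. The share fell from 94.7% below 74% GC to 7.69% at 84 to 86% in genes with 1 TSS, and was 31.3% at 88% or more.

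The 15 promoters at 88% or more without a summit were chosen after their values were seen. Adcy1 had the highest GC peak of all promoters without a summit, 93.0%, centred 3 bp upstream of the TSS, and its nearest summit was at -516402 bp. Papd7, Wnt3a, Ttc7b and Ccdc96 reached 90.5%, and Itpk1 90%. Egln1, the gene of the prolyl hydroxylase that marks hypoxia-inducible factor for decay, Zfpm1, a Gata cofactor gene, and Plag1 were at 89.5%. Chsy1, a chondroitin synthase gene, Purb, which encodes a single-stranded DNA binding protein, and 6330403L08Rik were at 89.0%, and Nova1 and Pcbp4, RNA-binding protein genes, and Kif13a, a kinesin gene, at 88.5%. From the regression, Papd7 had the lowest fitted chance of lacking a summit, 2.33%, followed by Egln1 with 3.04% and Adcy1 with 3.37%. These values were fitted to the same promoters, with GC peak height as a linear term. Such a term cannot follow the rise at 88% or more, where 15 of 48 (31.3%) lacked a summit. Itpk1, Ttc7b and Nova1 are on chromosome 12.

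In promoters that did hold a summit, its distance from the GC peak was also looked at after seeing the data. The strongest summit was a median of 94 bp from the centre of the GC peak over all 459 promoters, 96 bp at 84 to 88% and 208 bp in the 33 promoters at 88% or more. It was within 100 bp of the centre in 100 of 197 promoters (50.8%, 43.8 to 57.7%) at 84 to 88% and in 8 of 33 (24.2%, 12.8 to 41.0%) at 88% or more, and the difference was not tested. Samd1, with a GC peak of 93.0% centred at 441 bp, had its summit at -698 bp, whereas Adcy2, with 88.5% centred at -1 bp, had its summit at -14 bp. How well sequence of such GC content is amplified, sequenced and mapped was not tested.

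At the other end, promoters with the lowest GC peaks were almost all without a summit. The lowest was that of 4932443L11Rik at 67.0%, followed by Flg and by Tssk6, a testis kinase gene, at 71.0%. The Flg entries had under 50% unique words, so there an absence of breaks and a loss of reads cannot be told apart. Exceptions with a summit were Rgs9bp, the gene of an anchor of a G protein regulator, with a GC peak of 73.5% and a summit at -26 bp of 4.53-fold, and Ptf1a, a pancreatic transcription factor gene, with 74% and 3.82-fold. Fzd4, a Wnt receptor gene, had 74.5% and 4.01-fold, and Igf2bp1, an RNA-binding protein gene, 75% and 5.41-fold. Their summits had 24, 15, 16 and 28 reads, within the range of the other peaks.

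The highest fold enrichments among promoters with a summit were in Smo with 8.09-fold and 37 reads, D930015E06Rik with 7.86-fold and 38 reads, and Fam46c with 7.85-fold and 37 reads. Scaf8, which encodes a protein that binds the RNA polymerase II tail, had 7.58-fold and Nfkbia, the gene of an NF-κB inhibitor, 7.05-fold. Their GC peaks were 78.5, 83.0, 83.0, 85.5 and 85.0%, and that of Smo alone lay below the median of 79.0% of promoters without a summit.

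The 10 members with the highest GC content within 1 kb differed in the height of their GC peaks. Zswim6 (73.7% GC), 6330403L08Rik (72.2%), Egln1 (69.2%), Zfpm1 (69.1%), Papd7 (68.6%) and Adcy5 (68.02%), an adenylyl cyclase gene, had GC peaks of 86.5 to 90.5% and between 520 and 1042 windows of at least 75% GC. In Zswim6 the nearest summit was 1017 bp away, and in Adcy5 it was 1611 bp away. By contrast, Kpnb1 (68.9%), the importin β gene, and Kcnk12 (68.1%), a potassium channel gene, had GC peaks of 78 and 79.0%, and 205 and 402 such windows. Crtac1 (68.7%), a cartilage matrix gene, and Fasn (67.7%), the fatty acid synthase gene, both had a GC peak of 83.0%. High GC content over the whole window thus went with GC peaks from 78 to 90.5% in these 10 members.

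Families of genes were counted by symbol, with no test, beside the 40.5% over all very GC-rich promoters. Of 30 families, 19 had at least 3 very GC-rich promoters, and 280 promoters fell into any family, 142 of them without a summit, against 170 of 491 in none. Provisional gene models are counted among the 30 and hold 88 of the 280 promoters, 50 of them without a summit. Among transcription factors, homeobox genes outside the Hox clusters had 13 of 24 without a summit. Irx3, Irx4, Irx5 and Irx1, which pattern neural tissue and heart, were all among the 13, with Emx1 and Emx2, patterning genes of the forebrain, and Hmx3, a gene of the inner ear. Irx1 and Irx5 had GC peaks of 83.0 and 82% and Hmx3 of 80%. The median GC peak was 79.5% in the 13 and 86% in the 11 with a summit, among them Six2, Pou3f3 and Lbx1.

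Basic helix-loop-helix genes had 7 of 11 without a summit, among them Twist1, a mesoderm gene, with a GC peak of 83.5%, and Hes5 and Neurog1, a Notch target and a neuronal determination gene, with 76.5 and 78%. In this family the GC peaks did not follow the summits, with medians of 78.5% without and 76.8% with one. The median was also higher without a summit in forkhead genes (82.75 against 81.75%). The same order held in Hox genes (80.5 against 80%) and Kruppel-like and Sp genes (83.5 against 82%), each with 1 promoter without a summit. Forkhead genes had 4 of 10, with Foxo6, Foxo1 and Foxc1 at GC peaks of 83.0, 82.5 and 85.0%, and Foxc1 had its nearest summit 4908 bp downstream. Of 4 genes of the Hox clusters only Hoxd13, which patterns the limb, lacked a summit, with a GC peak of 80.5%. Of 4 Sox, Tbx, Pax and Gata genes Tbx2 and Sox11 lacked one, with 87.0 and 81.0%, and of 3 Kruppel-like and Sp genes Sp4 did, with 83.5%. C2H2 zinc finger genes had 4 of 11 promoters, with Zfp367 and Zbtb16 at 79.5% and Zfp787 at 78%. Zfp664 has separate entries among those with a summit.

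Among genes of signaling, Wnt, Fgf and Bmp ligands had 4 of 10 without a summit, namely Wnt3a, Bmp7, Gdf6 and Gdf7, and their GC peaks ran from 90.5% in Wnt3a to 77.0% in Bmp7. G protein-coupled receptors had 6 of 14, among them the Wnt receptor genes Fzd8, Fzd9 and Fzd10, Gpr25 and Adora2a. The nearest summit of Fzd8 was 1119 bp downstream, and that of Fzd10 at -15872 bp. Potassium and calcium channel genes had 5 of 14, with Kcnk12 at a GC peak of 79% and Kcnc4 at 78%. Phosphatases had 4 of 9, with Ppp1r14b at a GC peak of 85.5% and Ppp4r4 at 82%. Dusp4, an inhibitor gene of MAP kinase signaling, was at 74% with no window of 75% GC.

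Chromatin modifiers and remodelers had 7 of 11 without a summit. Suz12, a core subunit gene of Polycomb complex PRC2, had a GC peak of 84%, and Phf19 encodes a further PRC2 protein. Cbx2 encodes a Polycomb protein that reads methylated histone H3. Mll2 and Setd7, histone methyltransferase genes, had 84 and 81.0%, and Smarcd3 77.5%. The 4 with a summit, Smarcc2, Phf2, Phf13 and Brpf3, had a median GC peak of 88.3% against 82.5% in the 7.

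Collagens and other matrix genes had the highest share among the families with at least 3 promoters, 6 of 8 (75%, 40.9 to 92.9%). They were Lama5, Fbn2, Col4a1, Col27a1, Adamts3 and Adamts19, with GC peaks of 83.0% in Fbn2, a microfibril gene, and 76% in Col4a1, a basement membrane collagen gene. Solute carriers had 6 of 10, with Slc38a2, an amino acid transporter gene, at 78%, Slc29a4 at 80% and Slc35d3 at 80.5%. E3 ubiquitin ligases had 6 of 15, with Rnf166 at 83.5% and Socs3, a brake on cytokine signaling, at 77.0%. BTB and Kelch genes had 3 of 5, namely Klhl29, Btbd1 and Klhl21, and genes named Tmem 4 of 13 promoters, with Tmem132e, Tmem229a and Tmem30b. Tmem189 has separate entries among those with a summit. Very GC-rich promoters were few among housekeeping families, and Rpl10a, Mrpl14, Mrps6 and Ndufa13, of ribosomes and the respiratory chain, all lacked a summit, whereas Psma7 of the proteasome and Srsf6 of splicing held one. The counts are small, and of the families named so far the interval lay above 40.5% only for the matrix genes, singled out as the highest share.

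Provisional gene models, with symbols such as Gm4980 and 1810013L24Rik, had 50 of 88 without a summit (56.8%, 46.4 to 66.7%), with a median GC peak of 78.3% against 82.5% in those with one. Of these, 10 lie on chromosome 12 between 17.9 and 24.9 Mb, where all 10 very GC-rich provisional promoters lacked a summit and 7 had under 50% unique words. Copies such as Gm17391 and Gm17330, at 6.97 and 9.48% unique words, share most of their words with other places in the genome.

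Chromosome 12 stood apart, a pattern found after looking at all 19 autosomes. Of its 49 very GC-rich promoters, 34 had no summit (69.4%, 55.5 to 80.5%), against 278 of 722 (38.5%) on the other autosomes, a difference of 30.9 points (16.5 to 42.5). The other autosomes ranged from 25.5 to 47.6%. Without promoters of under 90% unique words it was 24 of 39 (61.5%), a difference of 23.4 points (7.30 to 37.4), and among promoters with a GC peak of at least 78% it was 25 of 40 (62.5%), a difference of 32.96 points (17.0 to 46.7). In genes with more than 1 TSS, scored at their outermost TSS, the difference was 11.3 points (-3.63 to 26.8). Named members on this chromosome include Sox11, Twist1, Sp4, Arf6, Gphn, Klhl29, Gdf7, Tmem30b and Ppp4r4.

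Peaks were sparser on this chromosome. It had 1.29 Chd1 KO peaks per Mb against 1.52 to 3.55 on the other autosomes, its peaks had a median of 19 reads against 20 to 24, and a median local background of 3.18 reads against 3.46 to 4.56. A background at the lowest value of the list, 3.18, was given to 61.5% of its peaks and to 7.87 to 33.6% elsewhere. At promoters of all GC contents, 42 of 401 on chromosome 12 held a summit (10.5%), within the 7.30 to 16.4% of the other autosomes. Of these 401 promoters 49 were very GC-rich, while over all autosomes 771 of 11411 (6.76%) were. The shares with a summit are not adjusted for this. Chromosome 8 had the highest background, 4.56, and 24 of its 56 very GC-rich promoters (42.9%) lacked a summit. The part that read depth or chromosome copy number has in the share on chromosome 12 was not tested.

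**Figure D5:**
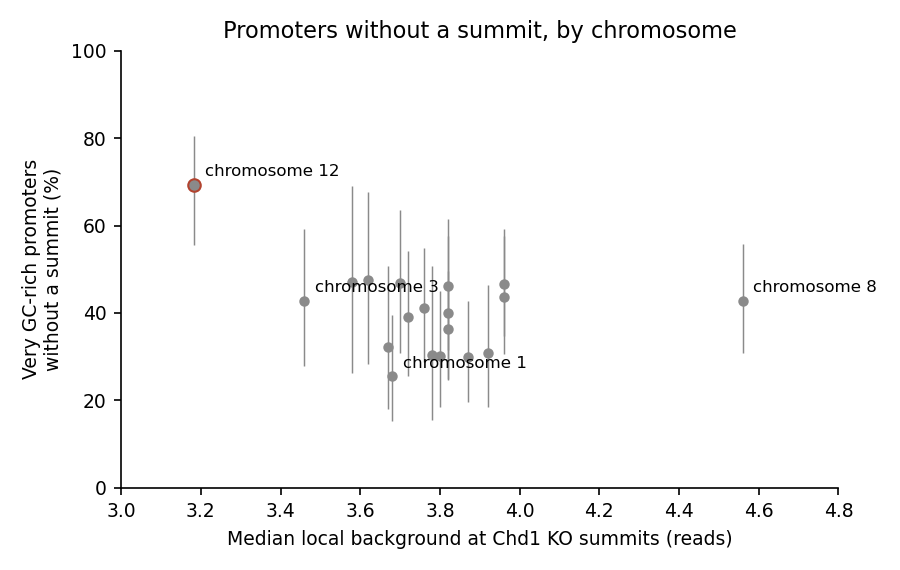
Percentage of very GC-rich promoters without a Chd1 KO summit on each of the 19 autosomes (Wilson 95% intervals) against the median local background at the Chd1 KO summits of that chromosome (reads). Chromosome 12, at 69.4% and 3.18 reads, lies at the upper left, chromosome 8 has the highest background (4.56) at 42.9%, and the others lie between 25.5 and 47.6%.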

How the data were processed

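The authors aligned the DSB-seq reads to mm9 using Bowtie2. They discarded reads with a mapping quality below 13 and all but 1 read at a position, merged the 2 replicates of a genotype, and ran MACS2 with reads extended to 200 bp and a q-value cutoff of 0.05. Blacklisted regions were taken out. The deposited lists give each peak's position and summit, the fold enrichment at the summit, −log10 of its p-value, and a score of 10 times −log10 of its q-value, all as the authors computed them. The fold enrichment is the ratio of the reads at the summit to the local background, with 1 added to each. The extended reads and local background at a summit were recovered from the fold enrichment and the Poisson p-value. ChIP-seq and signal tracks were not used here.

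Promoter features were computed from the mm9 sequence and GENCODE M1 with Python 3.11.15, NumPy 2.4.6, pandas 2.3.3, SciPy 1.17.1, statsmodels 0.14.6, pysam 0.24.0 and Numba 0.67.0, with plots from Matplotlib 3.10.9. The procedures were tested on simulated data. The members, features and family lists were chosen with earlier results of these data known. Family patterns were corrected after their matches were seen, which removed wrong matches such as Enox1, Enah, Bmp2k and Cdkn2aip.

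The text names the 10 members with the highest GC content, the 5 with the longest run and the 5 with the longest genes, up to 3 members per family with the highest GC content, the 5 promoters with the highest fold enrichment, those nearest to both thresholds, and Actb. A few items that this rule selects are not reported here. Other genes named were chosen after their values were seen. Alternatives changed the GC threshold and window, the distance to the summit, overlap in place of the summit and the q-value. They also changed the genes used (all genes, each at its outermost TSS), nearby TSSs and repeated sequence. Others compared the groups within strata of GC content. Strata of GC peak height, the extent of sequence of at least 75% GC, GC content over 10 kb, chromosome 12, provisional genes and the comparisons at the highest GC peaks were added after seeing the data.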

Additional observations from a re-analysis of the deposited data

How the results depend on the processing

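Of 161 alternative values, 131 kept their direction and the side of 50% pairs, 0 points or an odds ratio of 1 on which the interval lay, or a similar number of members. CpG density (59.9 to 73.97% of pairs) and GC peak height (75.97 to 86.3%) did so under all 14 and 12 alternatives tried. The number of members was 799 at a GC threshold of 58%, 96 at 64%, 1375 with GC content within 0.5 kb and 669 with all genes, as each of these takes in more or fewer promoters. Within strata of GC peak height, added after seeing the data, gene length fell to 53.9% of pairs, the longest run to 49.7%, the share with a run of 20 bp differed by 0.226 points and the C-G tract by 0.358 points. The joint model's odds ratio for gene length was 1.00 with the added terms of extent and chromosome 12. GC peak position was 66.5% of pairs with summits within 500 bp, a setting that counts promoters with a farther summit as lacking one. It was 53.9% with summits within 2 kb, 53.9% with overlap, 50.2% with GC content within 0.5 kb, 54.3% without nearby TSSs and 51.0% within strata, and its intervals then included 50%. The G-quadruplex difference was -6.84 points at 58%, -9.71 with GC content within 0.5 kb, -4.48 with all genes and -4.53 without chromosome 12, and that of the C-G tract -8.63, -8.0003 and -5.08 in the first 3 of these. Within strata of GC peak height the G-quadruplex difference was -0.239 points (-4.92 to 4.45). Unique 50-mers gave 52.2% of pairs at 58%, 55.0% at 64% and 52.9% with GC content within 0.5 kb, and 49.8% once promoters under 90% were left out. The odds ratio of unique 50-mers in the joint model was 0.713 (0.568 to 0.893) with all genes and 0.977 (0.640 to 1.49) without chromosome 12. Without that chromosome the share of pairs was 50.2% (47.4 to 53.0%). Except for the added promoters, the cause of these changes was not tested. No paired analysis was possible because the authors combined the replicates of each genotype before peak calling, which left 1 list per genotype. Peaks below 13 reads were beyond the depth of the Chd1 KO list.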
